A study of Mus musculus with 5 samples.

Results

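Cassette exons of 4 membrane skeleton genes, Add1, Epb41, Epb41l3 and Ank3, were followed in left ventricle of diabetic and control mice. A cassette exon is one that a transcript either holds or skips. The genes were chosen with earlier results of these data known. Within these genes no measured value chose the exons. Each event of these genes in the deposited tables was taken, 11 of 6616 events in all. Add1, Epb41l3 and Ank3 had 3 each and Epb41 had 2, of which the tables list 3 under the older symbols ADD1, Epb4.1 and Epb4.1l3. Those 3 are the 87-nt exon of Add1, the 63-nt exon of Epb41 and the 36-nt exon of Epb41l3. The 63-nt exon of Ank3 carries its present symbol there. All other events, the 279-nt exon of Add1 among them, have no symbol there and were named by exon and intron lengths in the GENCODE M21 annotation. The STZ group (3 samples) was C57BL/6 mice given streptozotocin, a toxin of pancreatic beta cells that leaves an animal short of insulin, by intraperitoneal injection of 70 mg/kg once a day for 5 days from an age of 8 weeks. The Control group (2 samples) was C57BL/6 mice injected with the citrate buffer alone on the same days. All were 12 weeks old, and the heart was quartered and frozen before RNA was taken. The labels do not say whether each sample is 1 animal, so p-values measure the spread between these samples.

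The membrane skeleton is a mesh of spectrin under the plasma membrane, joined at its nodes by short actin filaments. Adducins, such as the α-adducin made by Add1, cap the fast-growing end of those filaments and bring spectrin to them. Proteins of the band 4.1 family, among them 4.1R from Epb41 and 4.1B from Epb41l3, strengthen the binding of spectrin to actin and link it to membrane proteins. Ankyrin-G, made by Ank3, ties spectrin to channels and adhesion proteins, and in heart muscle it sits at the intercalated disc with the cardiac sodium channel.

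Where these exons lie in their transcripts was read from the GENCODE M21 annotation, whose build is GRCm38. An exon was matched by its own length together with the lengths of its flanking introns, and all 11 found a match. For the exons named by these same lengths, that match was fixed beforehand. Positions are those of the deposited tables, in mm9. The 279-nt exon of Add1 (chromosome 5, 34940818 to 34941096, plus strand) was in the 5′ UTR of 1 annotated transcript. That transcript had only 5 exons and an annotated coding part of 424 nt. The 87-nt exon (34963481 to 34963567) and the 37-nt exon (34971785 to 34971821) were coding in other transcripts. The coding parts of those transcripts were 1983 and 1992 nt long. The 2 exons of Epb41 (chromosome 4, minus strand) were coding and close neighbours: the 63-nt exon at 131518839 to 131518901 was followed, after 1 shared exon, by the 450-nt exon at 131492930 to 131493379. In Epb41l3 (chromosome 17, plus strand) the 36-nt exon at 69623222 to 69623257 and the 123-nt exon at 69633225 to 69633347 were coding, and the 117-nt exon at 69636952 to 69637068 held the annotated stop codon. In Ank3 (chromosome 10, plus strand) the 63-nt exon at 69367196 to 69367258, the 54-nt exon at 69383186 to 69383239 and the 27-nt exon at 69443572 to 69443598 were coding. All but the 37-nt exon of Add1 had a length that is a multiple of 3.

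The coding exons whose inclusion is described in detail are shown first, cut from the GENCODE M21 transcripts 5′ to 3′, with the exon in capitals and 12 bases of each neighbouring exon in lower case. For the 450-nt exon of Epb41 the first and the last 60 bases are given. The 63-nt exon of Epb41 encodes part of the domain of 4.1R that binds spectrin and actin, an exon known for being switched on as red cells mature.
Epb41 63-nt exon: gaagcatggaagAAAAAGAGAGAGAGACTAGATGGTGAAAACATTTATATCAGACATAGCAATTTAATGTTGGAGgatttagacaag
Epb41 450-nt exon, start: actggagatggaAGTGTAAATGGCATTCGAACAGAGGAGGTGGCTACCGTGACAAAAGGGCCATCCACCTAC
Epb41 450-nt exon, end: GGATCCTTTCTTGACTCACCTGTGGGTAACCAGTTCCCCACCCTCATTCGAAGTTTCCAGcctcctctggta
Add1 87-nt exon: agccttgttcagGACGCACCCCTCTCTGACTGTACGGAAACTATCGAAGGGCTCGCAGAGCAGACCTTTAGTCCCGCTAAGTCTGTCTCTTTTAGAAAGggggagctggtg
Epb41l3 123-nt exon: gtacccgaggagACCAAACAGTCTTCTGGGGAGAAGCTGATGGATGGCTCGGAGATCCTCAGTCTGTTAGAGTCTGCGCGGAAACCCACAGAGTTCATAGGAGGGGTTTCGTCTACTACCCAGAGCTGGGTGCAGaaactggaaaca
Ank3 27-nt exon: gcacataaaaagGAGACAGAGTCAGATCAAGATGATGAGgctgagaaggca
None of these held a stop codon in the annotated frame. The 63-nt exon of Epb41 was the poorest of the 11 in G and C, at 31.7%, and the 450-nt exon the richest, at 55.8%.

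The 37-nt exon of Add1 is shown by itself, because it decides where the protein ends. It is followed here by 12 bases of the next exon, and the capitals mark the stop codon, of which 2 bases lie in the exon and 1 in the next.
Add1 37-nt exon: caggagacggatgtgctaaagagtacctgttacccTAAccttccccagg
With the exon the annotated coding part ran 38 bases past the exon before it, and without the exon 347 bases, the stop codon counted in both. The longer tail is the form of α-adducin that carries the basic region near its C-terminus through which adducins bind actin, spectrin and calmodulin.

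Inclusion is given as Psi, as the authors deposited it for each library. It is the share of the including isoform among the including and skipping isoforms of an event. Informative reads are those that fit only the including or only the skipping isoform. The libraries are called STZ A to C and Control A and B, and only the number of libraries on each side of the comparisons, 3 against 2, tells which side is STZ. Their codes fall into 2 runs of numbers, one for each group, so treatment and anything else that came with those codes cannot be told apart for any value below. The STZ libraries had 12698304 to 14925224 reads on all events and the Control libraries 17173494 and 20986630, and the median tested exon had 94 to 118 informative reads in STZ libraries and 154 and 192 in Control libraries. The test took exons with 10 or more such reads in each library, which left 8 of the 11 and 4769 of all 6616.

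Of the 8 tested exons 1 passed an adjusted p of 0.05 in limma (12.5%), against 15% of all tested exons, a share near that background. It was called as higher in STZ, which holds for 4.84% of tested exons, and none was called as lower, which holds for 10.1%. Counted by an unadjusted p under 0.05 in limma, 4 of the 8 passed, against 32% of all tested exons. The libraries of STZ and Control did not overlap in Psi at 5 of the 8, against 42.9% of all tested exons. Psi differed by at least 0.10 at 6 of the 8, against 25.7% of all tested exons. The median change of Psi, STZ minus Control, was -0.0633 over the 8 and -0.01 over all tested exons. As the genes were chosen with earlier results known, these shares cannot tell whether their exons change more often than others.

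**Figure D1:**
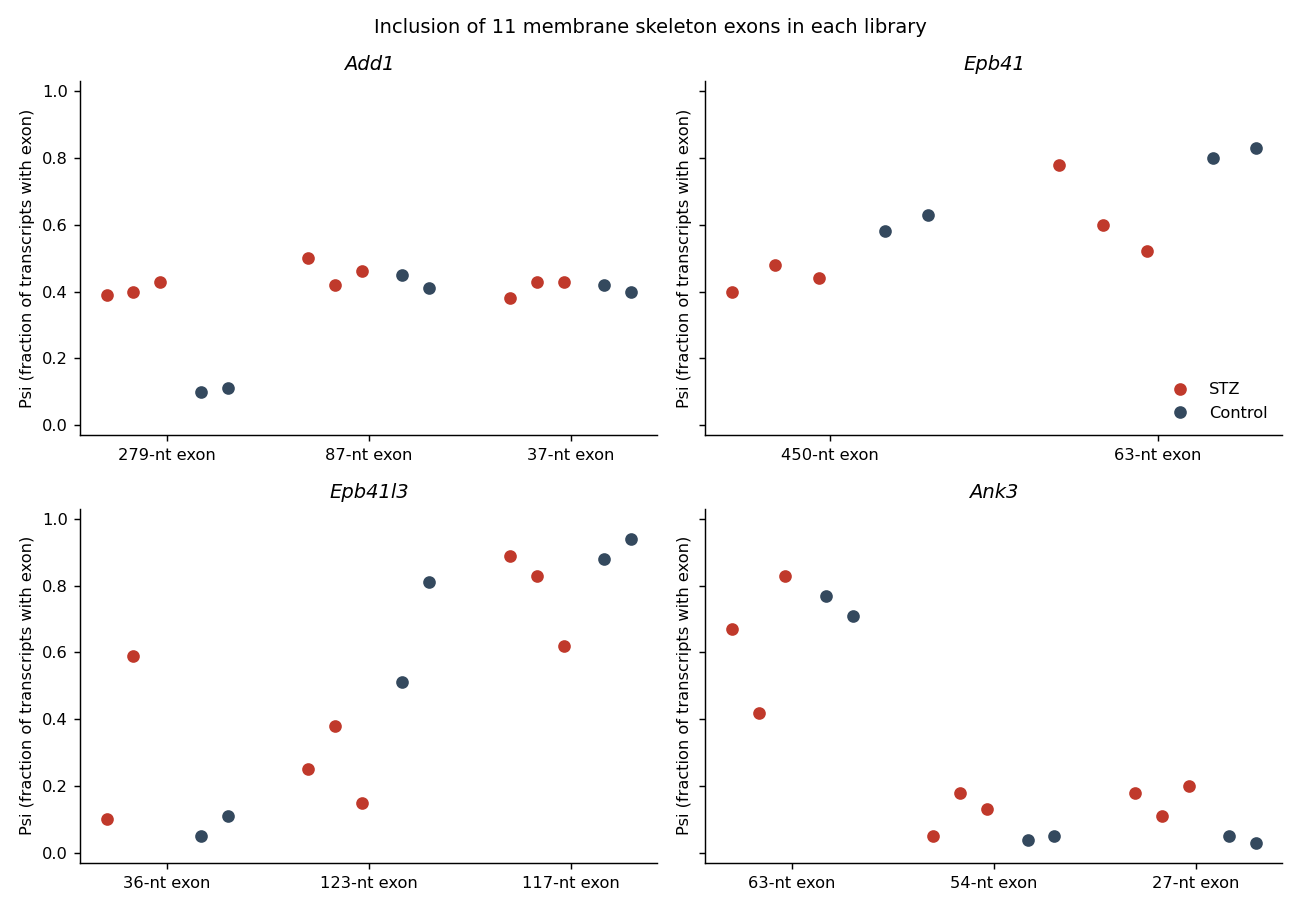
Psi (fraction of the including isoform among the including and skipping isoforms, vertical axis) in each library for the 11 exons. Each point is a library, STZ A to C in red, then Control A and B in dark blue. The 279-nt exon of Add1 stood at 0.39 to 0.43 in STZ against 0.10 and 0.11 in Control, while its 2 other exons lay between 0.38 and 0.50 in every library.

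The 279-nt exon in the 5′ UTR of Add1 was the exon that passed. Psi was 0.39, 0.40 and 0.43 in STZ A, B and C, against 0.10 and 0.11 in Control A and B. All 3 STZ libraries were above both Control libraries, with a gap of 0.28 between the nearest pair. The mean was 0.407 ± 0.0208 in STZ (SD, n = 3) and 0.105 ± 0.00707 in Control (SD, n = 2), a rise of 0.302 (1.77 on the logit scale, SE 0.07, limma adjusted p = 0.00395). Leaving out any 1 library kept the call, with limma adjusted p-values up to 0.0295. The reads moved in the same direction: 176, 121 and 113 reads fit only the including isoform and 171, 89 and 81 only the skipping isoform in STZ A, B and C, against 48 and 76 including and 255 and 393 skipping reads in Control A and B. In STZ A the 2 kinds of read were nearly equal in number, and in both Control libraries skipping reads were the clear majority. A model of these reads, a quasi-binomial fit of including against skipping reads with moderated dispersion, was run in a pair of versions. As planned, with its prior dispersion taken from all tested exons, it called 24 of all tested exons (0.503%) and none of the 8, of which 2 had an unadjusted p under 0.05, against 21.4% of all tested exons. The 279-nt exon missed the threshold there by a small margin (adjusted p = 0.05003). A version with the prior from exons with reads of both isoforms, chosen after that count was seen, called 20.4% of all tested exons and 3 of the 8, this one among them (adjusted p = 4.22e-08). In the authors' deposited table of each of the 6 comparisons the Bayes factor for a difference was 2.7e+68 or higher, and the difference, turned to STZ minus Control, was 0.28 to 0.33.

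The 2 coding exons of Add1 gave near-equal Psi in both groups. At the 87-nt exon Psi was 0.50, 0.42 and 0.46 in STZ A, B and C, against 0.45 and 0.41 in Control A and B, and the groups overlapped. The change was 0.03 (limma adjusted p = 0.613), and on the linear Psi scale its 95% confidence interval in limma ran from -0.054 to 0.114. At the 37-nt exon, which brings the early stop codon shown above, Psi was 0.38, 0.43 and 0.43 in STZ A, B and C, against 0.42 and 0.40 in Control A and B. The change was 0.003 (limma adjusted p = 1), with an interval from -0.055 to 0.061, so a shift of the size seen at the 279-nt exon lies outside the intervals of both. The 37-nt exon was read deeply as a whole but seldom decisively: 5427 to 6304 reads in STZ libraries, and 8715 and 10631 in Control libraries, fit both isoforms, against 181 to 232 informative reads in STZ libraries and 307 and 388 in Control libraries.

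**Figure D2:**
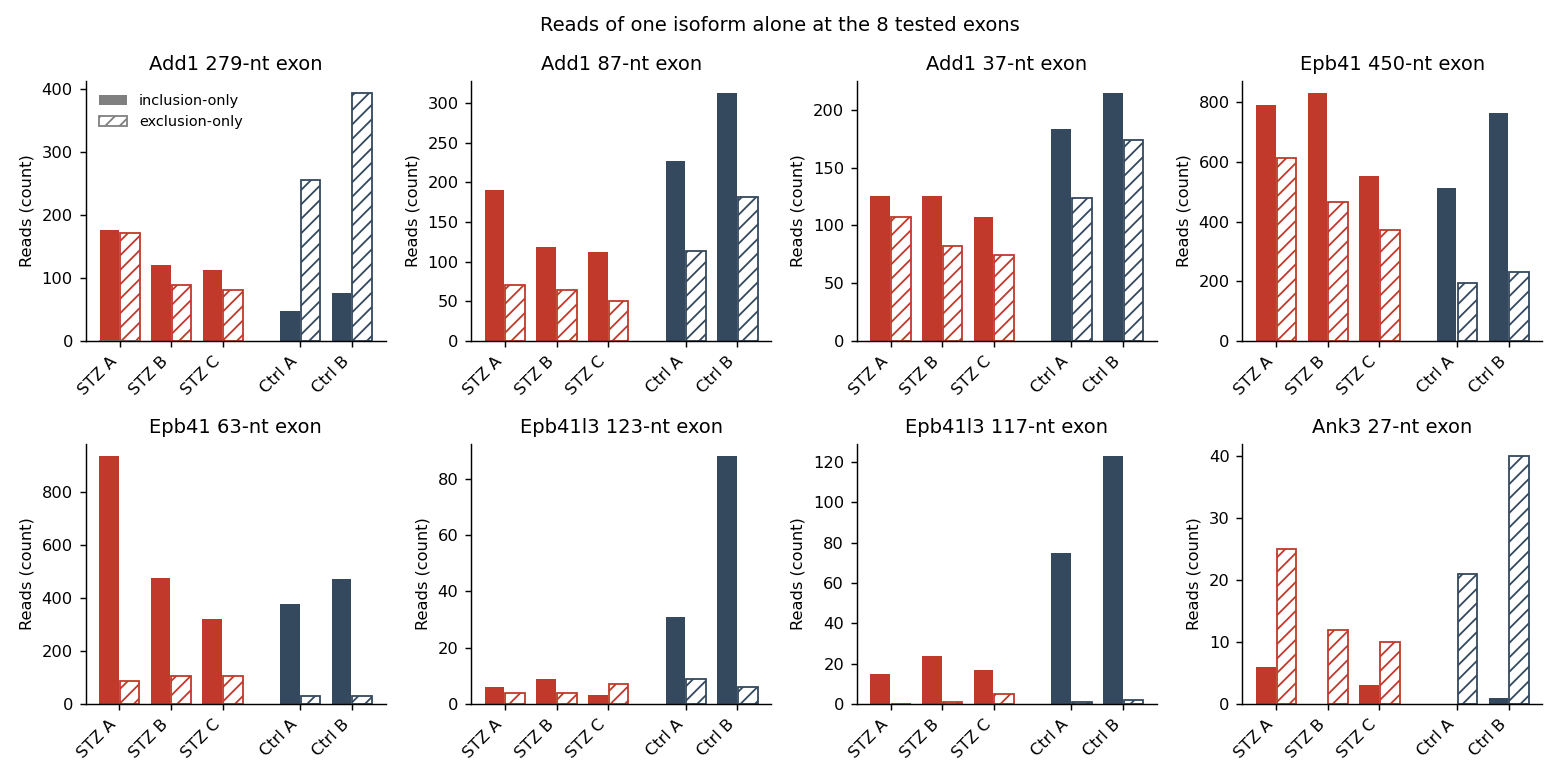
Number of reads (vertical axis, count) that fit only the including isoform (filled bars) or only the skipping isoform (hatched bars) at the 8 tested exons, in STZ A to C (red) and Control A and B (dark blue). At the 279-nt exon of Add1 the taller bar is inclusion in STZ, by 176 to 171 in STZ A, and skipping in Control; at the exons of Epb41l3 and Ank3 the bars in STZ rest on at most 25 reads each.

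In Epb41 both exons had lower Psi in STZ, and neither passed the adjusted threshold. At the 450-nt exon Psi was 0.40, 0.48 and 0.44 in STZ A, B and C, against 0.58 and 0.63 in Control A and B. The groups did not overlap. The mean was 0.44 ± 0.04 in STZ (SD, n = 3) and 0.605 ± 0.0354 in Control (SD, n = 2), a difference of -0.165 (limma adjusted p = 0.0539). Skipping reads were 614, 466 and 371 in STZ A, B and C, against 195 and 230 in the deeper Control A and B, while including reads were 791, 829 and 554 in STZ against 514 and 762 in Control. The Bayes factor in the authors' deposited table was 309.6 or higher in all 6 comparisons. The model of the reads did not call this exon as planned (adjusted p = 0.136) and did in the later version (adjusted p = 0.000125).

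Most reads at the 450-nt exon fit neither isoform. They made up 64.7% to 70.9% of its reads in STZ libraries and 88.9% and 88.8% in Control A and B, where the median tested exon had 52.1% to 52.7% in STZ libraries and 53.4% and 52.3% in Control A and B. Such reads were a smaller share in STZ also at the 63-nt exon of Epb41 (33.5% to 41.8%, against 53.1% and 54.2% in Control). So they were at the 123-nt exon of Epb41l3 (30% to 40.2%, against 61.3% and 56.1%) and the 37-nt exon of Add1 (7.87% to 8.71%, against 15.6% and 14.9%). At the 279-nt exon of Add1 the share was larger in STZ (39.2% to 43%, against 37.6% and 37.4%). The groups overlapped at the other tested exons of the 4 genes. What such reads come from, and their part in the values of Psi, was not tested.

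At the 63-nt exon of Epb41, in the spectrin-actin binding domain, the STZ libraries differed from each other more than most exons did. Psi was 0.78, 0.60 and 0.52 in STZ A, B and C, against 0.80 and 0.83 in Control A and B. STZ A lay just under Control A, and STZ B and C lay well below both. The range of 0.26 among the STZ libraries was matched or passed by 4.03% of tested exons, and the median range over tested exons was 0.04. The mean was 0.633 ± 0.133 in STZ (SD, n = 3) and 0.815 ± 0.0212 in Control (SD, n = 2), a difference of -0.182 that did not pass (limma adjusted p = 0.26). Without STZ A the difference was -0.255 and still did not pass (limma adjusted p = 0.0648). In the authors' deposited table the Bayes factor was 0.09 and 0.29 for STZ A against Control A and Control B, and 2.42e+24 or higher for the other 4 comparisons. Skipping reads numbered 88, 104 and 105 in STZ A, B and C, against 29 and 29 in Control A and B, and the model of the reads gave an adjusted p of 0.498 as planned and 0.0535 in the later version.

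Reads of Epb41 differed between the groups in the class they fell into more than in number. Reads that fit the including isoform, the skipping isoform or both, summed over its 2 events, came to 224, 172 and 144 per 1000000 event reads in STZ A, B and C, against 86.7 and 91.7 in Control A and B. On this measure the STZ libraries were all above the Control libraries. With the reads that fit neither isoform counted too, the sums were 554, 447 and 337 in STZ A, B and C, against 513 and 557 in Control A and B, and the groups overlapped. These levels are descriptions with no test, since the tables hold only reads on cassette exon events and no gene counts.

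In Epb41l3, the gene of protein 4.1B, Psi at the 123-nt exon was 0.25, 0.38 and 0.15 in STZ A, B and C, against 0.51 and 0.81 in Control A and B. The groups did not overlap, and the Control libraries stood 0.30 apart. The mean was 0.26 ± 0.115 in STZ (SD, n = 3) and 0.66 ± 0.212 in Control (SD, n = 2), a difference of -0.40 that was the largest among the 8 and did not pass (limma adjusted p = 0.153). It rested on 10, 13 and 10 informative reads in STZ A, B and C, against 40 and 94 in Control A and B. The model of the reads did not call it as planned (adjusted p = 0.297) and did in the later version (adjusted p = 0.0329). With 1 library left out, limma gave adjusted p-values of 0.161 to 0.434, and the difference was -0.25 without Control B and -0.55 without Control A.

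The 117-nt exon of Epb41l3, which carries the annotated stop codon, had Psi of 0.89, 0.83 and 0.62 in STZ A, B and C, against 0.88 and 0.94 in Control A and B. The groups overlapped, and the difference of -0.13 did not pass (limma adjusted p = 0.382). Without STZ C it was -0.05 (limma adjusted p = 0.537). Skipping reads were 0, 1 and 5 in STZ A, B and C, against 1 and 2 in Control A and B. The 36-nt exon was not tested: it was in 4 of the 6 tables, with no value for STZ C, and no library had a read of its including isoform alone. Its Psi was 0.10 and 0.59 in STZ A and B, against 0.05 and 0.11 in Control A and B.

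Reads of Epb41l3 were fewer in STZ. Those fitting an isoform came to 15.1, 13.4 and 12.1 per 1000000 event reads in STZ A, B and C, against 37.3 and 43.8 in Control A and B, and the groups did not overlap. With the reads that fit neither isoform the sums were 21.5, 19 and 15.4 in STZ, against 60.4 and 67.5 in Control. Reads of Add1 were fewer in STZ too, at 482 to 490 fitting an isoform, against 584 and 594 in Control. With reads of neither isoform they came to 604 to 622, against 796 and 803. For Ank3 the groups overlapped in reads fitting an isoform (1.86 to 3.89, against 3.55 and 5.38). With reads of neither isoform STZ was lower (15.3 to 36.8, against 42.6 and 53.3). These levels were not tested.

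In Ank3 the 27-nt exon was mostly skipped. Psi was 0.18, 0.11 and 0.20 in STZ A, B and C, against 0.05 and 0.03 in Control A and B, and all STZ libraries were above both Control libraries. The mean was 0.163 ± 0.0473 in STZ (SD, n = 3) and 0.04 ± 0.0141 in Control (SD, n = 2), a difference of 0.123 (limma adjusted p = 0.058). Including reads numbered 6, 0 and 3 in STZ A, B and C, against 0 and 1 in Control A and B, so in STZ B the higher Psi came with no read of the including isoform alone. The Bayes factor in the authors' deposited table was 34.8 for STZ A against Control B and at most 3.27 in the other 5 comparisons. Neither version of the model of the reads called the exon (adjusted p = 0.313 as planned and 0.11 in the later version). Without STZ A, B or C in turn it did not pass either (limma adjusted p = 0.148, 0.0755 and 0.149).

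The other exons of Ank3, of 63 and 54 nt, were not tested for lack of reads. The 63-nt exon had 0 informative reads in each STZ library, against 1 and 2 in Control A and B, and 99.2% to 100% of its reads fit neither isoform. Its deposited Psi ran from 0.42 to 0.83 in STZ and was 0.77 and 0.71 in Control, values that rest on almost no informative read. The 54-nt exon had 3, 0 and 0 informative reads in STZ A, B and C, against 9 and 17 in Control A and B, with Psi of 0.05, 0.18 and 0.13 in STZ and 0.04 and 0.05 in Control.

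**Figure D3:**
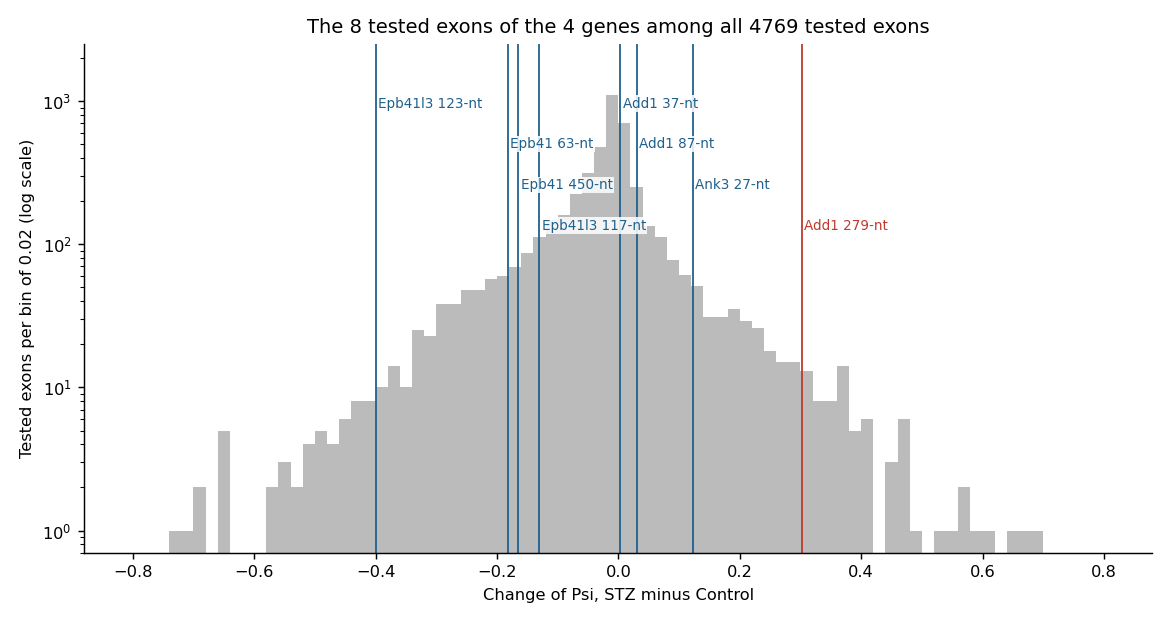
Number of tested exons (vertical axis, log scale) by the change of Psi, STZ minus Control (horizontal axis), with the 8 tested exons of the 4 genes as vertical lines, the called one in red and the others in blue. The 279-nt exon of Add1 at 0.302 and the 123-nt exon of Epb41l3 at -0.40 lie farthest out, and the 37-nt and 87-nt exons of Add1 lie within 0.03 of 0.

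The tested exons of other genes with Psi nearest to the 279-nt exon of Add1 over the 5 libraries were a 127-nt exon of 2410004B18Rik, a 107-nt exon of Eif4a2, which encodes a helicase used when translation starts, and a 182-nt exon of 0610040B10Rik. Their mean absolute difference from it was 0.03, 0.03 and 0.032. Psi of the Eif4a2 exon was 0.42, 0.39 and 0.41 in STZ A, B and C, against 0.06 and 0.06 in Control A and B.

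Beyond the 4 genes, a list of 29 other membrane skeleton genes (adducins, ankyrins, spectrins, band 4.1 proteins, tropomodulins and their membrane partners) had events in 12 genes and 11 tested exons in 7. Of these none was called as higher and 2 were called as lower in STZ (18.2%, against 15% of all tested exons called in either direction), with a median change of 0.00167. Psi differed by at least 0.10 at 3 of the 11, of which 1 was called. The called exon was a 15-nt exon of Sptan1, the non-erythroid α-spectrin, which is shown here because spectrin is what adducin and 4.1R bind (chromosome 2, 29869678 to 29869692, plus strand, exon in capitals).
Sptan1 15-nt exon: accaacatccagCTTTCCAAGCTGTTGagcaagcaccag
Its Psi was 0.18, 0.14 and 0.15 in STZ A, B and C, against 0.69 and 0.58 in Control A and B. The groups were far apart, at 0.157 ± 0.0208 in STZ (SD, n = 3) and 0.635 ± 0.0778 in Control (SD, n = 2), a difference of -0.478 (limma adjusted p = 0.0131). The call was lost without STZ B (limma adjusted p = 0.0548) and without STZ C (0.0581), and the model of the reads did not call it as planned (adjusted p = 0.059) and did in the later version (adjusted p = 4.26e-09). The other called exon, named after its values were seen, was a 51-nt exon of Gypc, which encodes a glycophorin that anchors 4.1R, with Psi at 0.903 in STZ and 0.96 in Control (limma adjusted p = 0.0283). It kept the call without STZ B and lost it without any other library (limma adjusted p = 0.0621 without STZ A and 0.0977 without STZ C). Neither version of the model of the reads called it (adjusted p = 0.292 as planned and 0.173 in the later version). The 2 exons with a change of at least 0.10 that were not called, also named after their values were seen, were in Dlg1, which encodes a scaffold protein that binds 4.1R. Psi of its 34-nt exon was 0.34, 0.55 and 0.20 in STZ A, B and C, against 0.10 and 0.05 in Control A and B, a difference of 0.288 (limma adjusted p = 0.122). The model of the reads did not call it as planned (adjusted p = 0.121) and did in the later version (adjusted p = 0.00278). At the 100-nt exon the difference was 0.108 (limma adjusted p = 0.284), though the share of including reads among informative reads was 1 in both groups. The 97-nt exon that overlaps it, also named after its values were seen, had the same shares. Its difference went the other way, at -0.06 (limma adjusted p = 0.211).

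The dystrophin complex, the other scaffold that joins actin to the heart muscle membrane, had events in 5 of 14 listed genes and 8 tested exons in 4. Of these 2 were called as higher in STZ and none as lower (25%, against 15% of all tested exons called in either direction), with a median change of 0.0108. Both changes of Psi were under 0.10, and the exons were named after their values were seen. A 32-nt exon of Dmd, which encodes dystrophin, was at 0.99 in STZ and 0.93 in Control (limma adjusted p = 0.0352). A 222-nt exon of Dtna, which encodes α-dystrobrevin, was at 0.03 in STZ and 0.005 in Control (limma adjusted p = 0.0066). Its including reads made up a larger share of informative reads than Psi, on average 0.418 in STZ and 0.0848 in Control. The model of the reads did not call the Dmd exon (adjusted p = 0.0875) or the Dtna exon (adjusted p = 0.126) as planned. The later version called both (adjusted p = 0.00115 and 0.00155). The call of the Dmd exon held in 1 of the 5 leave-one-out fits, the one without STZ C, and was lost in the others (up to 0.157), and that of the Dtna exon held in all 5. Psi clipped at 0.001 ended both calls. Psi differed by at least 0.10 at 2 other exons, a 49-nt exon of Dtna (0.157) and a 57-nt exon of Dag1 (-0.12), named after their values were seen, and neither was called (limma adjusted p = 0.531 and 0.146).

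Marker genes of other cell types were measured only where they had a cassette exon, and the libraries differed in them. In bulk tissue, fewer cells of a type and less RNA per cell cannot be told apart. The 7 of 14 heart muscle cell markers with an event summed to 33000 to 35300 reads fitting an isoform per 1000000 event reads in STZ libraries and to 71200 and 71400 in Control A and B. Most of that difference was Pln, which encodes phospholamban (15300 to 19700 in STZ, against 55000 and 55600 in Control). Camk2d (540 to 636 in STZ, against 1020 and 924 in Control) and Ryr2 (0.0788 to 1.14, against 2.04 and 3.86) were lower in STZ too. Ttn, which encodes titin, was at 9810 to 11800 in STZ against 11400 and 10800 in Control. Ldb3 (127 to 249 in STZ, against 137 and 150 in Control) and Myom1 (268 to 547, against 426 and 515) overlapped between the groups. Tnnt2, which encodes cardiac troponin T, was higher, at 4350 to 4800 in STZ against 3210 and 3310 in Control. The 2 of 6 endothelial markers with an event summed to 2290, 2970 and 3910 in STZ A, B and C, against 1110 and 1000 in Control A and B. Nearly all of these were reads of Pecam1, and for Egfl7 the groups overlapped (41.3 to 75.2 in STZ, against 76.4 and 60.6 in Control).

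The 3 of 5 smooth muscle markers summed to 237 to 306 in STZ libraries against 243 and 242 in Control, of which Myh11 was higher in STZ (93.9 to 153, against 40.4 and 31.7 in Control) and Smtn lower (105 to 161, against 188 and 198 in Control). The 2 of 6 fibroblast markers summed to 41.7 to 60.2 in STZ against 75.6 and 87.9 in Control. The 3 of 6 leukocyte markers summed to 33.1 to 71.8 in STZ against 69.3 and 57.4 in Control. Of these Cd68 overlapped between the groups (30.4 to 64.1 in STZ, against 34.9 and 36.1 in Control). Cd74 (2.48 to 7.72 in STZ, against 30.2 and 17.3 in Control) and Ptprc (0 to 2.28, against 4.25 and 3.91) were lower in STZ. The 1 of 6 neuronal markers was at 0.894 to 1.26 in STZ against 0.99 and 1.72 in Control. None of the 10 red cell precursor markers had an event, so RNA of young red cells, in which Epb41 is strongly spliced, was not measured by these tables. Ptprc of the leukocyte list was at 0 in STZ C. The part of other cell types in the values of Epb41, Epb41l3 and Add1 was not tested.

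**Figure D4:**
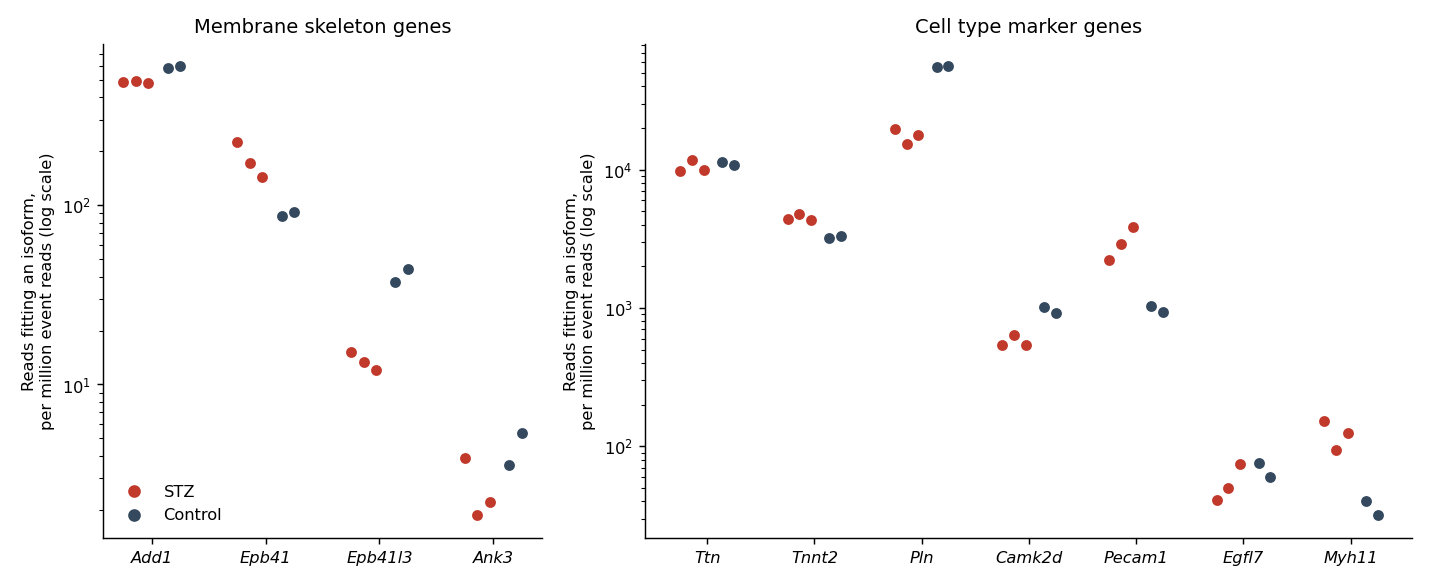
Reads that fit an isoform per 1000000 event reads (vertical axes, log scale) of the 4 genes (left) and of 7 cell type marker genes (right), each point a library, STZ in red and Control in dark blue. The other measured markers, among them Smtn, Ryr2, Ldb3 and Myom1, are not shown. Epb41 at 144 to 224 in STZ lies above 86.7 and 91.7 in Control, and Epb41l3 at 12.1 to 15.1 in STZ lies below 37.3 and 43.8 in Control.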

How the data were processed

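RNA of left ventricle was sequenced in 3 STZ and 2 Control samples. The submitters' processing notes name CASAVA 1.8.2, TopHat and the genome build mm9. Each of the 6 deposited tables compares 1 library of each group with MISO, per the file headers. The deposited Psi is a fraction from 0 to 1. Reads come as whole counts in 4 classes, as deposited by the authors, the difference column as a plain difference of Psi, and the Bayes factor as a ratio, per the file headers. For MISO no version or event filter was given in the sources used here. Of the columns of values per library 36, the credible bounds and the reads assigned to isoforms, were not used.

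Gene symbols came from the tables, with older symbols brought up to date through the Ensembl ID beside them, then from length matches to GENCODE M21 (2584 events). Psi was clipped to 0.01 and 0.99, put on the logit scale and compared in limma 3.58.1 (R 4.3.3) with a prior variance trended on read depth (log2 of the mean number of informative reads), two-sided, with Benjamini-Hochberg adjustment over 4769 exons. The planned model of the reads took its prior dispersion from all tested exons. After its 24 calls were seen, the prior was taken from exons with at least 10 reads of each isoform and dispersions were kept at 0.001 or more. Both versions are reported, and the later one is not independent of that count. The tests were tried on simulated data. Sequences came from GENCODE M21 transcripts. Exons of the 4 genes were named in full where called, where Psi differed by at least 0.10 or where their position was given with the choice of genes. Exons of the other lists were named where called with a difference of at least 0.10, and any others are said to be named after their values were seen. The genes and lists were chosen with earlier results of these data known.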

Additional observations from a re-analysis of the deposited data

How the results depend on the processing

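In limma the count over all exons, 713, was within 1.5 times of that under the other read minimums, clips, scale, prior and weights, and ran from 282 to 466 with 1 library left out. By the authors' differences, which had to reach 0.20 with the same sign and with Bayes factors of 10 in each of the 6 comparisons, the count was 192 over the tested exons and 204 over all exons in the 6 tables. The model of the reads changed most with its prior: as planned it called 24 exons over all, 0 exons of the 4 genes, 0 of the other membrane skeleton genes and 0 of the dystrophin complex. The version chosen after those counts were seen called 973 over all and 3 exons of the 4 genes. Among the exons of the 4 genes the count of 1 in limma was 1 with each STZ library left out. It was 2 with Psi clipped at 0.001, where the 450-nt exon of Epb41 passed by a very small margin (limma adjusted p = 0.04998). For the other membrane skeleton genes the count of 2 was 1 with Psi clipped at 0.05, 1 on the linear scale, 1 by the authors' differences, and 0 to 1 with 1 library left out. For the dystrophin complex the count of 2 was 0 with Psi clipped at 0.001, 1 with Psi clipped at 0.05, 1 on the linear scale, 0 by the authors' differences, and 1 to 2 with 1 library left out. The cause was not tested. A fit without 1 Control library assumes that the lone one varies like the STZ libraries. No paired analysis was possible because the tables carry no replicate numbers. Depth limits the exons of Epb41l3 and Ank3 most.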
